A study of Mus musculus with 10 samples.

Results

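Guanine deaminase (Gda), xanthine dehydrogenase (Xdh) and 6 further enzymes of purine salvage and interconversion (Hprt, Aprt, Ada, Adk, Ampd2 and Ampd3) were followed across 10 clonal lines of 3T3-L1, a mouse fibroblast line that can turn into adipocytes. They are 8 of the 19937 genes that had a probe set annotated to their symbol alone, and each of the 8 had 1 such probe set. The genes were chosen by name, with Gda selected on its High minus Low difference in these same arrays, so the class difference of Gda, and of Xdh named beside it, is given as a description without a test. The High group was 5 lines that stored much triglyceride after a cocktail of insulin, dexamethasone and IBMX (replicates 1 to 5, clones 3F4, 4D2, 4E3, 5C4 and 5D4). The Low group was 5 lines that stored little (replicates 1 to 5, clones 1E7, 2D7, 2F1, 4D11 and 4H4). All 10 lines were untreated, proliferating in DMEM with 10% serum and kept below confluence when RNA was taken, so the arrays show the cells before any cocktail. Each line is 1 clone and 1 array, and the spread between lines therefore holds clonal and technical variation together.

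Cells obtain purine nucleotides by building them from small precursors or by salvaging free bases and nucleosides. HPRT returns hypoxanthine and guanine to the nucleotide pool, APRT returns adenine and ADK returns adenosine. Guanine deaminase takes guanine out of that pool by turning it into xanthine, and xanthine oxidoreductase, the product of Xdh, oxidises hypoxanthine and xanthine to urate. Xanthine oxidoreductase has been described in mouse cells as a contributor to adipogenesis that acts upstream of PPARG. Ada, Ampd2 and Ampd3 lead adenine compounds towards inosine and IMP.

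The start regions of Gda, Hprt and Aprt are shown because Gda and Hprt signals ran alike over the lines and Aprt ran opposite to them. Sequences are from RefSeq on build GRCm38.p6, 300 bases each, 250 before and 50 after the annotated start, read 5′ to 3′ on the gene's strand. Capitals mark every match, on either strand, to the TATA box (TATAAA), the CCAAT box, the GC box (GGGCGG), the E box bound by MYC (CACGTG) or the core element of nuclear receptors (AGGTCA), and no matches overlapped. The Gda window is chr19:21472612-21472911 on the minus strand, the Hprt window chrX:52987828-52988127 on the plus strand and the Aprt window chr8:122576858-122577157 on the minus strand.
Gda: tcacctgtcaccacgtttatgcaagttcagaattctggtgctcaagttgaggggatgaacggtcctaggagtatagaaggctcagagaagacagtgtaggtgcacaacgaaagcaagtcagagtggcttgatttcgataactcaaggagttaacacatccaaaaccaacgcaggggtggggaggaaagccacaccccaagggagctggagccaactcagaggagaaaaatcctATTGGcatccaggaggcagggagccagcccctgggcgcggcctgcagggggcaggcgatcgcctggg
Hprt: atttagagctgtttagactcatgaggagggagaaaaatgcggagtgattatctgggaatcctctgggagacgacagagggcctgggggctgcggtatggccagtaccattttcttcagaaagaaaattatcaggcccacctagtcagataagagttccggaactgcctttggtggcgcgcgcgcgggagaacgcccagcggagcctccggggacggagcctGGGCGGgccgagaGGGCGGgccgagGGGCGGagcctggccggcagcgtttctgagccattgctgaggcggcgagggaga
Aprt: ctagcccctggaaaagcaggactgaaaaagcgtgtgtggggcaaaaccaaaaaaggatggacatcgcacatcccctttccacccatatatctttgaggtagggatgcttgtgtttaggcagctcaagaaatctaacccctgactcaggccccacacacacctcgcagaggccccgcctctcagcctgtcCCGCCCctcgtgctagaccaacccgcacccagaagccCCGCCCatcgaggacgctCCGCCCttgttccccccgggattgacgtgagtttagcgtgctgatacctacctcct
The Gda window held 1 match, a CCAAT box on the opposite strand, and 9 CpG dinucleotides at 55.0% G+C. The Hprt and Aprt windows each held 3 GC boxes, with 22 and 14 CpG dinucleotides. Over 32851 mouse start windows of this length, 37.4% held the CCAAT box, 35.7% the GC box, 13.6% the TATA box, 7.15% the E box and 16.3% the nuclear receptor element, and the median window had 7 CpG dinucleotides. Of the 8 members, 7 had a start window in the table used.

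Markers of the labelled cell type were present in every line. All 10 fibroblast and preadipocyte markers lay above the intensity filter, which a gene passes when its signal exceeds the 25th percentile of the array in at least 5 arrays, and their mean log2 signal was 12.66 to 12.87 in High and 12.57 to 12.77 in Low lines. Mature adipocyte markers averaged 7.03 to 7.35 in High and 7.03 to 7.18 in Low lines over 6 genes, with Adipoq and Lep below the filter and Plin1, Cidec, Retn and Slc2a4 above it. Epithelial, endothelial and leukocyte markers averaged between 6.94 and 7.59 in every line, under the array medians of 7.74 to 7.84, and muscle markers between 7.93 and 8.42. Single genes of these lists were brighter than their averages. The mature adipocyte marker Plin1 (7.86 to 8.36) lay above the array medians in every line. So did Krt8 (8.19 to 8.35), Cd68 (8.50 to 9.04), Cd14 (7.91 to 8.80), Acta1 (9.29 to 10.51) and Des (7.94 to 9.60). Vwf (7.64 to 7.98), Ckm (7.71 to 8.13), Myod1 (7.38 to 7.93) and Retn (7.56 to 7.86) did so in some lines only. Array medians differed little, and each array's mean correlation with the others ran from 0.987 (High replicate 4) to 0.993. In such bulk RNA, fewer cells with a transcript and less transcript per cell cannot be told apart.

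Guanine deaminase RNA was higher in every High line than in any Low line. The log2 signal of Gda (probe set 10466659, Entrez gene 14544) was 9.08, 8.94, 7.93, 7.86 and 8.84 in High replicates 1 to 5, against 6.94, 7.69, 7.24, 7.41 and 7.37 in Low replicates 1 to 5. The groups did not overlap, but High replicate 4 lay only 0.17 above Low replicate 2, less than the spread of 0.46 between lines of a class. The mean was 8.53 ± 0.59 in High and 7.33 ± 0.27 in Low lines (SD, n = 5 each), a difference of 1.20 (SE 0.24, 95% confidence interval 0.68 to 1.72) or 2.30-fold on the RMA scale. These are the values by which Gda was picked. A larger positive difference was found in 9 of 16339 tested genes, a rank that goes with that choice and lends it no support. All 5 High lines above all 5 Low lines was met by 0.526% of tested genes and all 5 below by 1.04%, and among the members by Gda alone in the first sense and by none in the second.

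The High lines were not uniform for Gda. High replicates 1, 2 and 5 lay within 8.84 to 9.08, and the step of 0.91 down to High replicate 3 was the only step in the order of the 10 lines that exceeded the within-class SD. High replicates 3 and 4, at 7.93 and 7.86, were closer to the brightest Low line than to the other High lines. The brightest line had 4.38 times the signal of the dimmest, Low replicate 1. In all 5 Low lines Gda lay under the median of its own array and in all 5 High lines over it, while it passed the intensity filter in 10 of 10 arrays. Margins were small in High replicate 4, at 7.86 against an array median of 7.84. The same held for Low replicate 2, at 7.69 against 7.75. The within-class SD of Gda exceeded that of 98.1% of tested genes. The 50 tested genes nearest to Gda on chromosome 19 had a median difference of -0.07, and with their median subtracted in each line Gda differed by 1.248.

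**Figure D1:**
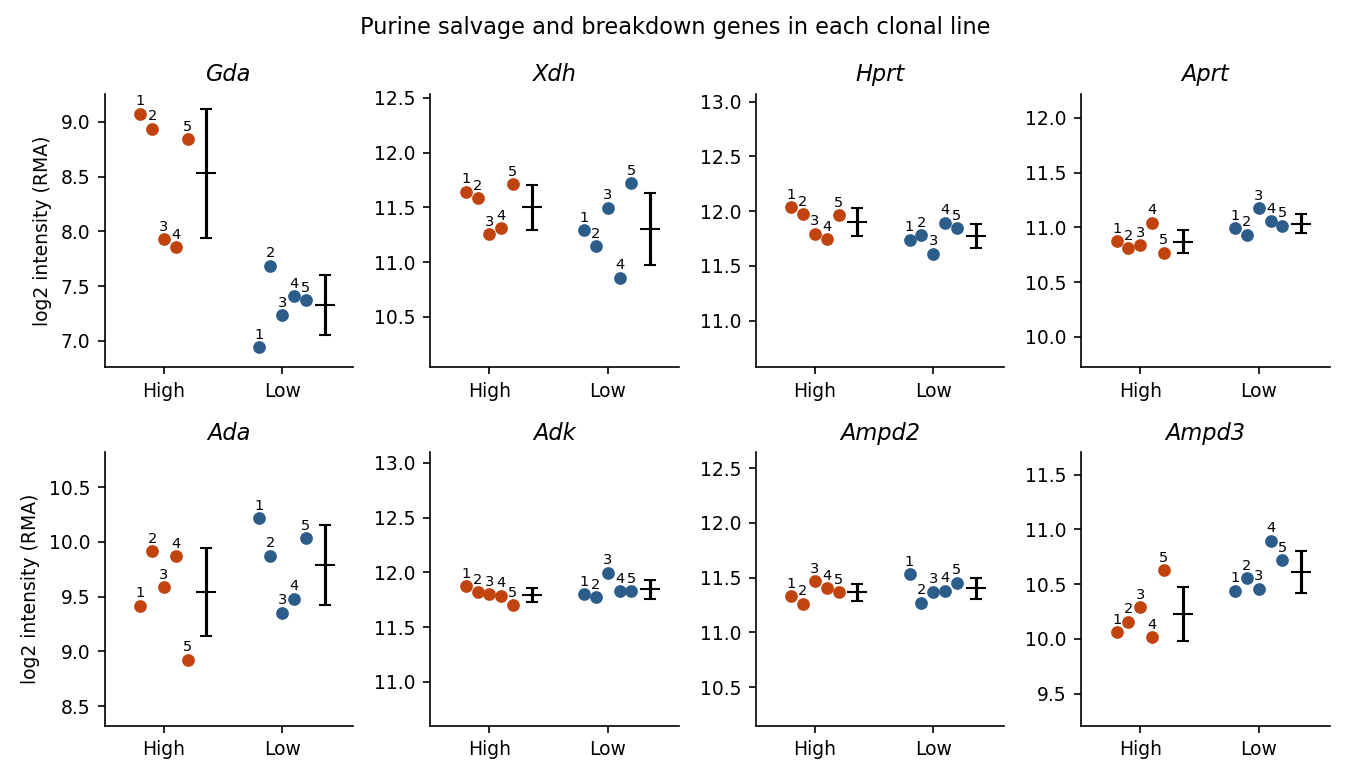
Log2 RMA intensity (vertical axis, 2.5 log2 units tall in every panel) of the 8 genes in 5 High lines (orange, left) and 5 Low lines (blue, right), with replicate numbers beside the points and mean ± SD as black bars. Gda separates the classes, with High replicates 1, 2 and 5 well above replicates 3 and 4, while the classes overlap in each of the other 7 panels.

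Xdh, which encodes the enzyme after guanine deaminase in the route to urate, overlapped fully between the classes. Its log2 signal was 11.64, 11.58, 11.26, 11.31 and 11.71 in High replicates 1 to 5, against 11.29, 11.15, 11.50, 10.86 and 11.72 in Low replicates 1 to 5. The brightest line was Low replicate 5 and the dimmest Low replicate 4, so the Low class spanned the whole range. The mean was 11.50 ± 0.20 in High and 11.30 ± 0.33 in Low lines (SD, n = 5 each). The difference of 0.20 (SE 0.15, 95% confidence interval -0.13 to 0.53) was within the spread between lines. It was 0.09 without Low replicate 4 and 0.30 without Low replicate 5. The step from Low replicate 2 down to Low replicate 4, 0.29, was the only one in the order of lines above the within-class SD of 0.27.

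Hprt, the salvage enzyme that competes with guanine deaminase for guanine, did not differ past the threshold. Its log2 signal was 12.04, 11.97, 11.79, 11.74 and 11.96 in High replicates 1 to 5, against 11.74, 11.78, 11.61, 11.89 and 11.85 in Low replicates 1 to 5. The lines brightest for Hprt were High replicates 1, 2 and 5, the same 3 that were brightest for Gda, and the other High lines lay inside the Low range. The difference was 0.13 (SE 0.08, 95% confidence interval -0.04 to 0.29), for which limma gave an adjusted p of 0.733. With the first digit of the clone name fitted as a block, High minus Low was 0.01.

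Aprt, which salvages adenine, was lower in 4 of 5 High lines than in every Low line. Its log2 signal was 10.87, 10.81, 10.84, 11.04 and 10.77 in High replicates 1 to 5, against 10.99, 10.93, 11.18, 11.06 and 11.01 in Low replicates 1 to 5. High replicate 4 was the exception and lay within the Low range. The difference was -0.17 (SE 0.07, 95% confidence interval -0.32 to -0.02), with a limma unadjusted p of 0.0332 and an adjusted p of 0.579. Aprt lies on chromosome 8, which had 175 lower and 9 higher genes in High lines among 851 tested, counted at an unadjusted p under 0.05. Among the 50 tested genes nearest to Aprt the median difference was -0.08, and 11 were lower at that level. With the median of these neighbours subtracted in each line, Aprt differed by -0.10 (limma adjusted p = 0.755). The part of the neighbours in the Aprt value was not tested further.

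Adk, which phosphorylates adenosine to AMP, had the lowest within-class SD of the 8 genes. It measured 11.88, 11.82, 11.80, 11.79 and 11.70 in High replicates 1 to 5, against 11.80, 11.77, 12.00, 11.83 and 11.83 in Low replicates 1 to 5. The classes overlapped, and that SD of 0.08 exceeded that of only 8.59% of tested genes. The difference was -0.05 (95% confidence interval -0.18 to 0.09, limma adjusted p = 0.848).

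Ada, which deaminates adenosine to inosine, varied widely between lines without following the classes. It measured 9.42, 9.91, 9.59, 9.87 and 8.93 in High replicates 1 to 5, against 10.22, 9.87, 9.35, 9.48 and 10.04 in Low replicates 1 to 5. High replicate 5 was the dimmest line and Low replicate 1 the brightest, 2.45-fold apart. The difference was -0.25 (SE 0.20, 95% confidence interval -0.69 to 0.19, limma adjusted p = 0.793). It was -0.10 without High replicate 5, -0.14 without Low replicate 1 and -0.01 with the clone digit as a block. The within-class SD of Ada, 0.38, exceeded that of 97.0% of tested genes.

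The AMP deaminase genes, whose products turn AMP into IMP, gave differences of unlike size, and the contrast between them was not tested. Ampd3, the form first described in erythrocytes, measured 10.06, 10.16, 10.29, 10.02 and 10.63 in High replicates 1 to 5, against 10.44, 10.55, 10.46, 10.90 and 10.72 in Low replicates 1 to 5. High replicates 1 to 4 lay under every Low line and High replicate 5 within the Low range. The difference was -0.38 (SE 0.12, 95% confidence interval -0.65 to -0.11), with a limma unadjusted p of 0.00933 and an adjusted p of 0.435. Without High replicate 5 it was -0.48 (limma adjusted p = 0.133), and with the clone digit as a block -0.59. Ampd2, the form best known from liver, ran from 11.26 to 11.47 in High and from 11.27 to 11.54 in Low lines. Its difference was -0.04 (95% confidence interval -0.18 to 0.11, limma adjusted p = 0.894). The 50 genes nearest to Ampd3 had a median difference of -0.01.

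By the limma fit over all genes, 0 of the 8 members passed an adjusted p of 0.05, a level that 0.00612% of tested genes reached (1 of 16339). Gda and Xdh stand in that count as a description and not as a test, because Gda was picked on these same values. At an unadjusted p under 0.05, 2 members were lower in High lines, Aprt and Ampd3, where 4.79% of tested genes were lower and 3.16% higher. Gda, counted on the higher side, was chosen for that difference and adds nothing to the count. The members' median difference was -0.04, against 0.02 over all tested genes, with 3 positive and 5 negative.

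Across lines, Gda ran with Hprt and against Aprt and Ampd2. Over the 10 lines Pearson's r between the log2 signals of Gda and Hprt was 0.80 (Spearman's rho 0.79), and r was 0.78 between their deviations from the class means. Without High replicates 1 and 2, the lines farthest from the median of Gda, r was 0.61 over 8 lines. High replicate 5, also among the brightest lines for both Gda (8.84) and Hprt (11.96), stayed in those 8. The r without it as well was not computed, so how far the likeness rests on these bright lines was not tested. For Gda and Aprt r was -0.78 (rho -0.72), -0.52 for deviations from the class means and -0.76 without the same 2 lines. For Gda and Ampd2 r was -0.59 (rho -0.59), -0.75 for the deviations and -0.36 without those 2 lines. Over the same 8 lines r with Gda was also -0.70 for Ada and -0.64 for Adk, but -0.09 for Ampd3 and 0.33 for Xdh. Both classes remain in those 8 lines, so the class difference still enters these r values. For Gda and Xdh r was 0.50 (rho 0.28) and 0.36 for the deviations. These are descriptions of 28 pairs in which every gene is read from the same 10 arrays, and an array's shared technical shifts enter both genes of a pair. Of the 28 pairs, r exceeded 0.5 in 2, Gda with Hprt and Aprt with Adk, and was under -0.5 in 3, Gda with Aprt, Gda with Ampd2 and Hprt with Aprt.

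**Figure D2:**
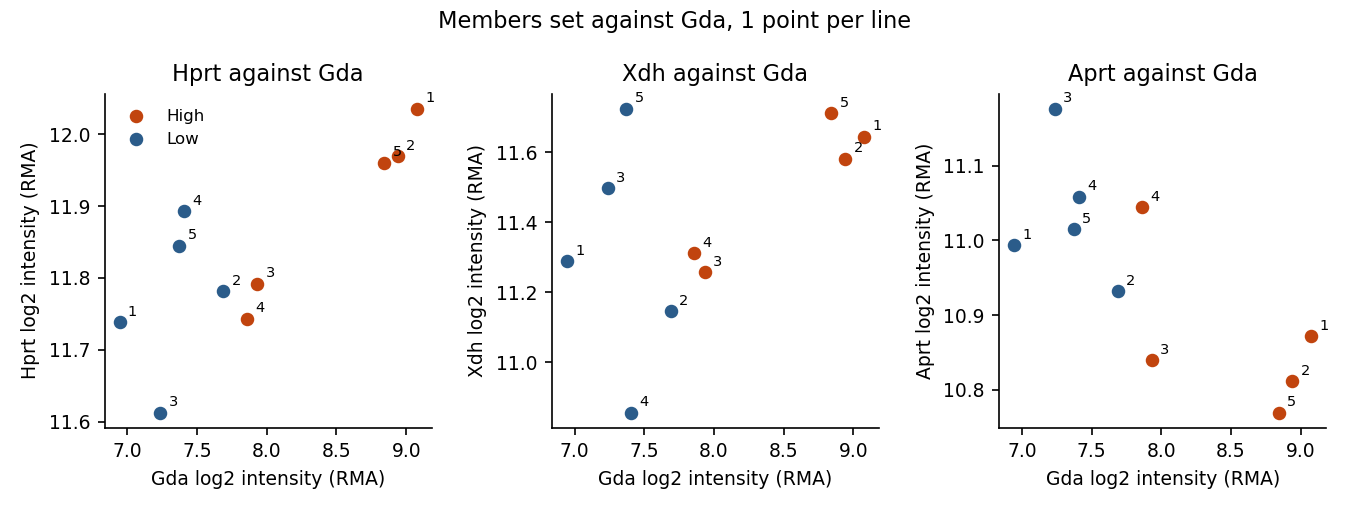
Log2 RMA intensity of Hprt, Xdh and Aprt (vertical axes) against that of Gda (horizontal axis), 1 point per line, High in orange and Low in blue, numbered by replicate. High replicates 1, 2 and 5 sit at the right of each panel, at the top for Hprt (11.96 to 12.04). For Aprt they are low (10.77 to 10.87), with High replicate 3 (10.84) among them, while Xdh spreads over its full range among Low lines.

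Gda was set against 7 genes linked to adipogenesis, over all lines and within the classes. Over all 10 lines r with Gda was 0.64 for Pparg, the master regulator of fat cell formation, 0.76 for Angptl4, 0.75 for Vstm2a, 0.74 for Mgst1, 0.68 for Plin4, 0.48 for Fabp4 and 0.46 for Cebpa. Apart from Cebpa, these genes were themselves picked out by, or are known for, the class difference, which alone can give a positive r. Cebpa differed by 0.19, and its classes overlapped. For deviations from the class means r was -0.27 for Pparg, -0.32 for Angptl4, -0.01 for Vstm2a, 0.10 for Mgst1, -0.05 for Plin4, -0.39 for Fabp4 and 0.21 for Cebpa. High replicate 5 shows the parting, with Gda at 8.84 among the brightest lines but Fabp4 at 8.63 and Vstm2a at 8.65, under the 4 other High lines for both. For Xdh the deviations gave r of 0.64 with Plin4, a lipid droplet coat protein, 0.62 with Mgst1, 0.38 with Pparg, 0.31 with Angptl4, 0.24 with Cebpa, 0.13 with Fabp4 and -0.06 with Vstm2a.

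Predicted and non-coding transcripts, recognised by their symbols, were skipped when genes were ranked by likeness. Of the rest, the genes whose log2 signals were most like Gda over the 10 lines were Recql5, a DNA helicase gene (r = 0.92), the collagen-modifying gene Crtap (r = 0.91), Efr3b (r = 0.91), the glycosyltransferase gene Galnt1 (r = 0.90) and the linker histone gene H1f2 (r = 0.90). For deviations from the class means they were the ubiquitin ligase gene Wwp1 (r = 0.90), Foxred1 (r = 0.90), Ndrg3 (r = 0.89), Epb41l2 (r = 0.89) and Cuedc1 (r = 0.88). No gene was on both lists. For Xdh, Parl, which encodes a mitochondrial protease, and the transcription factor gene Tfcp2 led both lists, with r of 0.95 for values and 0.96 for deviations in each case. The other 3 were Spryd3, Nfatc4 and Rab3d for values (r = 0.91 each) and Atp5g2 (r = 0.94), Pbdc1 (r = 0.92) and Cpped1 (r = 0.91) for deviations. These r values are the highest over 10 lines among the genes left of the 16339 tested after that skip, and carry no test.

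The rest of the purine pathway was read from 8 lists, together 94 genes, with 80 on a probe set of their own and 73 tested. By limma 0 passed an adjusted p of 0.05. At an unadjusted p under 0.05, 7 lay lower in High lines and 1 higher, 10.96% of those tested, where 7.95% of all tested genes reached that level. The median difference over the 73 genes was -0.01, with 35 positive and 38 negative. With arrays centred on their medians it was -0.04, with 21 positive and 52 negative, while all tested genes were 7463 positive and 8876 negative, against 9475 and 6864 as deposited. The count at an unadjusted p under 0.05 was then 13 of 73, where 1486 of all 16339 tested genes reached that level. With the clone digit as a block it was 3 of 73, where 676 of 16339 did.

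De novo synthesis, the route that builds IMP on a ribose phosphate, had a negative difference for all 10 genes tested. The median was -0.10, from -0.30 for Prps2 to -0.01 for Adsl, and it was -0.09 after repeated quantile normalization and -0.14 after centring the arrays on their medians, with 10 of 10 negative in both. Prps1, which makes the phosphoribosyl pyrophosphate that HPRT and APRT also use, measured 11.96 ± 0.13 in High and 12.15 ± 0.08 in Low lines (SD, n = 5 each), with a limma unadjusted p of 0.0238 and an adjusted p of 0.534. Prps2 measured 11.70 ± 0.34 in High and 12.00 ± 0.34 in Low lines (limma adjusted p = 0.725). The lines did not part by class in these genes. In High replicate 4, 9 of the 10 genes lay above their own mean, and in Low replicate 3 only 4 did. With 1 line left out, at least 9 of 10 differences stayed negative.

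**Figure D3:**
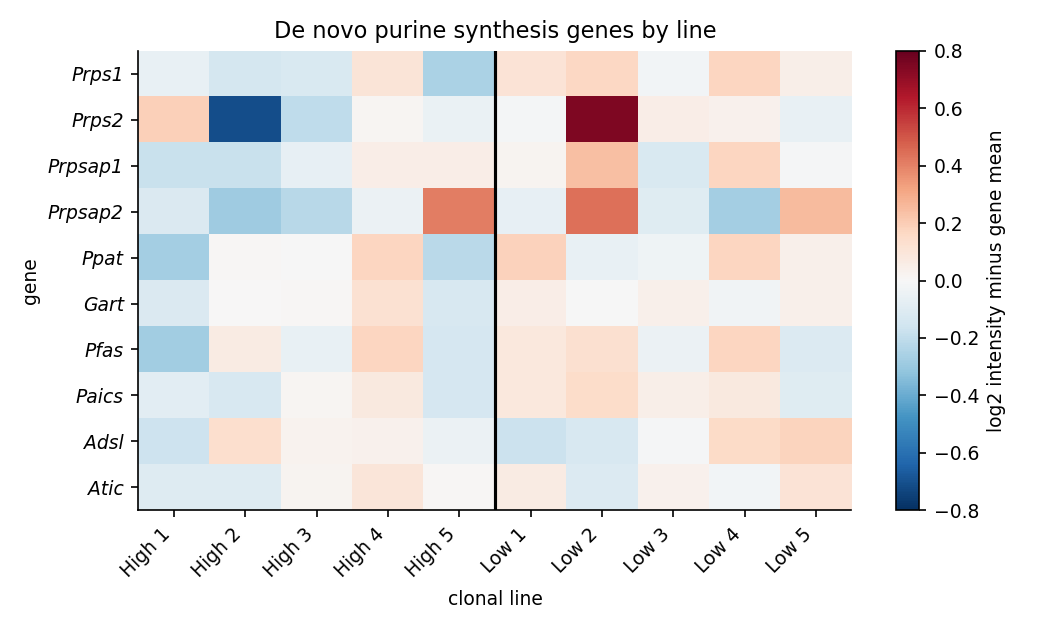
Log2 intensity of 10 de novo purine synthesis genes (rows) in 5 High lines (left of the black line) and 5 Low lines (right), each as a difference from the mean of its gene over the 10 lines, with red above and blue below. High replicate 4 is above the mean for 9 of 10 genes, and the strongest colours are those of Prps2 in High replicate 2 and Low replicate 2.

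Steps next to the members gave small differences. Pnp, purine nucleoside phosphorylase, which releases the guanine and hypoxanthine that GDA, XDH and HPRT act on, measured 10.98 ± 0.13 in High and 11.12 ± 0.09 in Low lines (SD, n = 5 each; limma adjusted p = 0.67). Itpa, which clears inosine triphosphate, differed by -0.13 (limma adjusted p = 0.708). In the list of breakdown and urate genes 12 were tested, 6 with positive and 6 with negative differences and a median of -0.01, and 0 had an unadjusted p under 0.05. The split was 2 positive to 10 negative with arrays centred on their medians and 4 to 8 after repeated quantile normalization. Uox, urate oxidase, which removes urate in mice, lay below the intensity filter. The 4 tested genes that lead from IMP to AMP and GMP split 2 to 2 in sign, and 0 to 4 with arrays centred. Gmps, GMP synthetase, differed by -0.12 and Adss, adenylosuccinate synthetase, by -0.10, neither past the threshold (limma adjusted p = 0.724 and 0.759).

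Xanthine oxidoreductase needs a molybdenum cofactor, and genes of that cofactor were read with the other enzymes that carry it. Of 8 tested, 5 had positive and 3 negative differences, and the median was 0.02 (4 and 4, median -0.01, with arrays centred). Gphn, which encodes gephyrin, the enzyme of the last steps of cofactor synthesis, measured 9.86, 10.14, 10.01, 9.78 and 9.99 in High replicates 1 to 5, against 10.29, 10.08, 10.23, 10.39 and 10.52 in Low replicates 1 to 5. High replicate 2 alone among the High lines lay above a Low line. The difference was -0.35 (SE 0.09, limma unadjusted p = 0.00271, adjusted p = 0.311), and Gphn lies on chromosome 12, which had 160 lower and 5 higher genes among 545 tested, counted in the same way. Suox, sulfite oxidase, measured 10.06 ± 0.18 in High and 10.50 ± 0.41 in Low lines (SD, n = 5 each; limma adjusted p = 0.537), with Low replicate 2, at 9.80, under all High lines.

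Purine kinases, which interconvert mono-, di- and triphosphates, split 7 to 7 in sign with a median of -0.00, and 5 positive to 9 negative with arrays centred. Ak5, an adenylate kinase, differed by -0.68 (SE 0.30, limma adjusted p = 0.598), but by -0.14 with the clone digit as a block, and ran from 7.53 to 8.70 in High and from 8.07 to 9.68 in Low lines. Nme4, the mitochondrial nucleoside diphosphate kinase, measured 9.79 ± 0.21 in High and 10.13 ± 0.17 in Low lines (SD, n = 5 each; limma adjusted p = 0.434), and differed by -0.34, or -0.08 with that block. Ak8 was the 1 of the 73 genes whose classes did not overlap, with High above Low, which 0.526% of all tested genes showed, at 6.83 to 7.11 in High and 6.73 to 6.83 in Low lines. That gap was 0.0067, and the difference of 0.17 had a limma adjusted p of 0.49. It was 0.07 with the clone digit as a block, and the stricter filter on dim signals leaves Ak8 out.

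**Figure D4:**
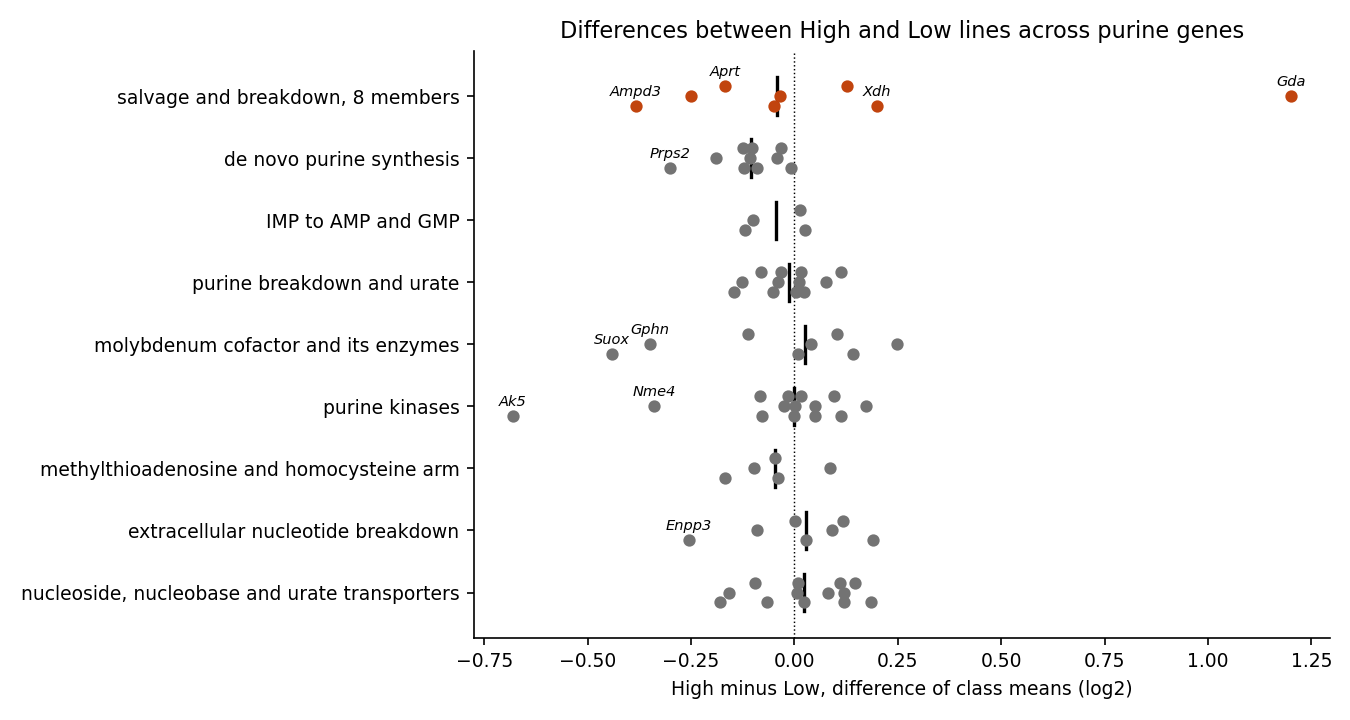
High minus Low differences of class means (log2, horizontal axis) for the 8 members (orange) and for 73 tested genes of 8 purine lists (grey), 1 point per gene, with black bars at each list's median; points are offset vertically for legibility. Gda, at 1.20, stands alone to the right, the 10 de novo synthesis genes all lie left of 0, and Ak5 and Suox lie farthest to the left, with Ampd3 the lowest member.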

How the data were processed

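Per the labels, total RNA was copied into biotin-labelled sense-strand cDNA for 1 array per clonal line. The deposited values are log2 intensities that the authors made with RMA, named without a version in the submitters' processing notes. RMA makes array distributions nearly alike, so a shift shared by most genes would be largely removed. Array medians still ran from 7.74 to 7.84. Of 16339 tested genes, 9475 had a positive difference as deposited and 7463 with arrays centred on their medians. The settings of RMA are not stated in those notes.

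Of 34760 probe sets, 21640 carried 1 symbol in the platform annotation, for 19937 genes. The brightest probe set per gene by mean over 10 arrays was kept, and 16339 genes were tested, those above the 25th percentile of 5 or more arrays, with limma 3.58.1 in R 4.3.3 (lmFit, eBayes, two-sided, Benjamini-Hochberg). All 8 members passed that filter in 10 of 10 arrays. Gene order came from RefSeq (GRCm38.p6). Differences are High minus Low.

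The members and lists were chosen with earlier results of these data known. Named purine genes were, per list, the 2 with the smallest p and any with an unadjusted p under 0.05. The limma step was tested on simulated data. Alternatives covered the filter, probe sets, normalization, variance model, array weights, clone-name digit, neighbouring genes and each line left out. Precision is set by the number of lines. Tables were handled with Python 3.11.15 and pandas 2.3.3.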

Additional observations from a re-analysis of the deposited data

Results flagged for a closer look

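A line stood apart from the other 4 of its class in 3 of 50 sets of 5 values examined for the members and named purine genes, where about 2.5 arise by chance. Adk in Low replicate 3 measured 12.00, against 11.77 to 11.83 in the other Low lines. Prps2 in Low replicate 2 measured 12.59, against 11.79 to 11.90 in the other Low lines, and without that line the High minus Low difference of Prps2 was -0.15. Nt5e, which encodes the ecto-enzyme that makes adenosine from AMP, measured 6.495 in Low replicate 2, against 6.62 to 6.65 in the other Low lines.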

How the results depend on the processing

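No paired analysis was possible because the labels number no replicates. The count of genes past the threshold, 1, was 2 with arrays centred on their medians, 3 with array weights and 0 with the clone digit as a block, and ran from 1 to 19 with 1 line left out, the 19 without High replicate 5 and 2 without Low replicate 3 or Low replicate 5. The counts of members and of other purine genes past the threshold in limma were 0 in every alternative run, with Gda and Xdh again counted as a description only. Gda ran from 1.06 to 1.37 with 1 line left out and from 1.05 (clone digit as a block) to 1.34 (array weights) otherwise. Xdh ran from 0.09 to 0.30 with 1 line left out. The block rests on clone names starting with 4, the only digit in both classes, which High replicates 2 and 3 and Low replicates 4 and 5 carry. Itpa changed sign with it, at 0.032, and the cause was not tested. The other members and named genes kept their sign, but the block moved Ak5 to -0.14, Nme4 to -0.08, Nt5e to 0.0046, Slc2a9 to 0.06, Ak8 to 0.07, Srm to -0.07, Ahcyl1 to -0.04, Enpp3 to -0.72 and Abcc4 to -0.39. A stricter filter, above the array median in at least 5 arrays, keeps Gda through its High lines alone.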

Other observations

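Genes of extracellular nucleotide breakdown and of purine transport were read from lists of their own. The first list named 13 genes, adenosine receptors among them, but the 8 with a probe set of their own included no receptor. Of 7 tested genes of extracellular nucleotide breakdown, 5 had positive and 2 negative differences (3 and 4 with arrays centred or with the clone digit as a block), and 0 reached an unadjusted p under 0.05 in limma. Nt5e measured 6.80 ± 0.25 in High and 6.61 ± 0.07 in Low lines, and Enpp3, an ectonucleotide pyrophosphatase gene, 10.98 ± 0.43 in High and 11.24 ± 0.28 in Low lines (SD, n = 5 each; limma adjusted p = 0.708 and 0.783). Of 13 tested transporters 9 had positive and 4 negative differences, but 6 and 7 with arrays centred on their medians, with the clone digit as a block or without High replicate 4. Slc2a9, which carries urate, measured 8.66 ± 0.17 in High and 8.47 ± 0.18 in Low lines, and Abcc4, an exporter of cyclic nucleotides and urate, 9.47 ± 0.14 in High and 9.65 ± 0.09 in Low lines (SD, n = 5 each; limma adjusted p = 0.693 and 0.593).

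A list of its own joined genes of homocysteine with those of methylthioadenosine, a by-product of polyamine synthesis that feeds adenine to APRT. In that joint list 1 of 5 tested genes had a positive and 4 a negative difference. Srm, spermidine synthase, measured 13.09 ± 0.13 in High and 13.26 ± 0.07 in Low lines, and Ahcyl1 12.41 ± 0.07 in High and 12.51 ± 0.06 in Low lines (SD, n = 5 each; limma adjusted p = 0.598 and 0.727).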
